A study of Mus musculus with 2 samples.

Results

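Mitochondrial ribosomal protein genes encode the proteins of the ribosome that works inside mitochondria. All of these proteins are made from nuclear genes, translated in the cytoplasm and imported, and the ribosome they build translates the few respiratory chain proteins that mitochondrial DNA encodes. The large subunit joins amino acids and holds the exit tunnel, and the small subunit binds and decodes the mRNA. The genes described here are the protein-coding genes whose symbol starts with Mrpl or Mrps followed by a digit, named after the large and the small subunit, and that had reads in both libraries. This gave 78 genes (49 Mrpl and 29 Mrps), which were all 78 such genes of the annotation, out of 18366 annotated genes with a read and 13061 protein-coding genes with a read in both libraries. Some of the symbols do not say where the protein sits: Mrps30 and Mrps18a encode proteins of the large subunit, and the product of Mrps36 is a component of the 2-oxoglutarate dehydrogenase complex.

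The study sequenced RNA of mouse cortex with long reads, each assigned to 1 transcript model. Both libraries came from males of the F1 hybrid strain B6CASTF1/J, taken at 14 days of age from cortex of the left hemisphere, each from 2 µg of total RNA, and no treatment is given in the labels. There is therefore 1 group with 2 libraries, replicate 1 and replicate 2, both tied by the labels to the same donor identifier, and the labels' wording "3x Males" leaves it unclear whether animals were pooled. Tests between the 2 libraries compare them against counting error only. The labels number them as biological replicates, but whether they come from separate animals is not clear, so the spread between them may be partly technical.

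Replicate 1 held 775048 mouse reads and replicate 2 held 924222. The excitatory neuron marker Slc17a7 and the pan-neuronal marker Snap25 were present in both libraries. Nrgn, another excitatory neuron marker, had 1942 reads per 1000000 mouse reads (CPM) in replicate 1 and 3525 in replicate 2. Among cortical cell types, 1 of 4 excitatory neuron markers (Nrgn) and 1 of 4 astrocyte markers (Aldoc) were called higher in replicate 2, and 3 of 4 astrocyte markers had an unadjusted p under 0.05. Markers of other cells and tissue also moved between the libraries: 4 of 4 striatum markers and 3 of 3 tested oligodendrocyte markers were higher in replicate 1, while 3 of 3 red blood cell markers and the choroid plexus marker Ttr were higher in replicate 2 by Fisher's exact test, which called 1.01% of all genes higher in replicate 1 and 1.1% higher in replicate 2. The summed level of the striatum markers was 889.0 CPM in replicate 1 and 219.6 in replicate 2, and that of the red blood cell markers was 254.2 in replicate 1 and 509.6 in replicate 2. In bulk tissue, fewer cells of a type and less RNA per cell cannot be told apart.

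Together the 78 genes took 2680 reads in replicate 1 and 3533 in replicate 2. That is 0.346% of mouse reads in replicate 1 (95% Wilson interval 0.333 to 0.359) and 0.382% in replicate 2 (0.370 to 0.395), where intervals cover counting error only. In CPM, the summed level was 3458 in replicate 1 and 3823 in replicate 2, or 3640 ± 258 (SD, n = 2). Levels are read counts and were not divided by length, since a long read counts once. No source used here gives molecular identifiers, and the yield of the 2 libraries differed with transcript length, as given further on, so levels of genes of unlike length are not free of it. The leading transcripts of these genes ran from 418 bases (Mrpl52) to 7300 bases (Mrpl17), with a median of 1284.

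The mean CPM of the 78 genes had a median of 41.7 (quartiles 28.6 and 63.2) and spanned 11.6-fold, from 10.8 ± 6.1 for Mrps28, the mitochondrial counterpart of bacterial protein S1, to 125 ± 18 for Mrpl50, a large-subunit protein with no bacterial counterpart (SD, n = 2). The SD of log2 mean CPM over the members was 0.70, close to the 0.59 of 35 genes of respiratory complex I subunits, which ran from 45.6 to 284 CPM. It was 1.38 for 82 cytoplasmic ribosomal protein genes and their paralogs, 1.71 for 34 proteasome subunit genes and 2.10 over all protein-coding genes with reads in both libraries. The lowest proteasome genes were Psmb8 (1.19 CPM) and Psmb9 (2.37 CPM), which encode subunits of the immunoproteasome. Genes this low widen the SD of their list, as does Rpl3l (1.19 CPM) among the cytoplasmic ribosomal protein genes. The SD without such genes was not taken, so the larger SDs do not describe the bulk of these lists. The members' median stood below those of the 3 complexes, which were 132 CPM for complex I, 79.3 for cytoplasmic ribosomal proteins and 131 for the proteasome, and above the median of 23.8 over protein-coding genes. Across the 78 genes, which are not independent replicates, log2 CPM of replicate 1 and replicate 2 had a Pearson r of 0.83 and read counts a Spearman rho of 0.86.

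**Figure D1:**
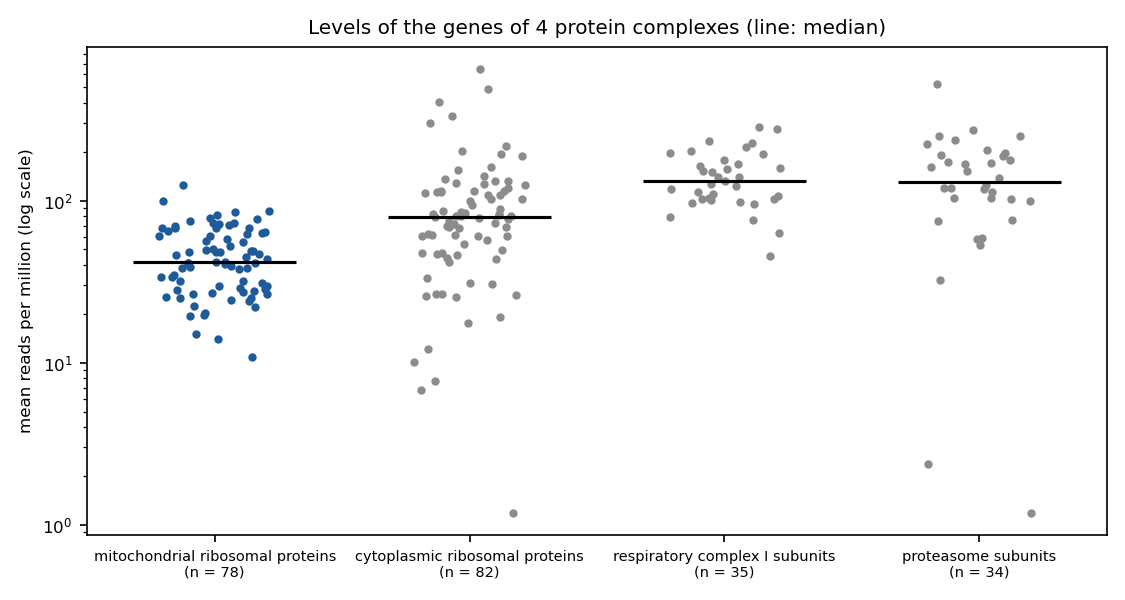
Mean CPM over both libraries (log axis) for each gene of 4 protein complexes, with 1 point per gene and a line at each median. The 78 mitochondrial ribosomal protein genes lie between 10.8 and 125 CPM, lower than the complex I genes, which lie between 45.6 and 284, with overlap.

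Among the large-subunit genes, Mrpl50 gave the most reads, with 87 in replicate 1 and 127 in replicate 2. It was followed by Mrpl20 (69 and 102 reads in replicates 1 and 2), Mrpl28 (61 and 86) and Mrpl30 (49 and 92), all counterparts of bacterial ribosomal proteins. In replicate 2 these 4 were the highest of the Mrpl genes. Replicate 1 ranked Mrpl50, Mrpl20 and Mrpl28 highest, while Mrpl30 lay there below Mrpl45, Mrpl42, Mrpl10 and others. The stalk that contacts translation factors has 3 genes here: Mrpl10 had 67.9 ± 4.3 CPM, Mrpl12 had 60.1 ± 10.0 and Mrpl11 had 28.1 ± 3.2 (SD, n = 2). Around the exit tunnel, Mrpl45, which anchors the ribosome to the inner membrane, had the highest level at 67.7 ± 10.1 CPM, followed by Mrpl24 (55.7 ± 13.1), Mrpl17 (48.4 ± 17.3) and Mrpl39 (41.3 ± 7.4). Mrpl22, at the same site, had 15.1 ± 3.1 CPM. The places of Mrpl30 and Mrpl24 rest in large part on models of the Genomic class, described further on. These held 22 of 49 Mrpl30 reads in replicate 1 and 59 of 92 in replicate 2. For Mrpl24 they held 17 of 36 reads in replicate 1 and 29 of 60 in replicate 2.

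The 6 genes of the central protuberance, the crown of the large subunit, had mean CPM from 38.2 (Mrpl40) to 62.3 (Mrpl38). Between these values lay Mrpl48, Mrpl58, Mrpl18 and Mrpl46; Mrpl58 encodes a peptidyl-tRNA hydrolase built into the ribosome. Proteins with no bacterial counterpart were headed by Mrpl50, Mrpl42 (72.4 ± 0.2 CPM), Mrpl41 (64.5 ± 5.5) and Mrpl49 (64.0 ± 12). At the low end stood Mrpl1 of the mobile L1 stalk, with 15 reads in replicate 1 and 8 in replicate 2, then Mrpl22 (10 and 16), Mrpl13 (18 and 15) and Mrpl14 (15 and 18).

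Among genes named for the small subunit, the median of mean CPM was 41.8, close to the 41.4 of the Mrpl genes. Mrps17 led with 63 reads in replicate 1 and 81 in replicate 2, followed among proteins with a bacterial counterpart by Mrps24 (48 and 75), Mrps5 (63 and 56) and Mrps7 (49 and 67). Mrps5 was higher in replicate 1 in CPM and the other 3 were higher in replicate 2, all within counting error. Mrps33 (78.6 ± 14.4 CPM), Mrps26 (76.7 ± 15.4), Mrps27 (74.4 ± 4.2) and Mrps25 (49.6 ± 2.8) led the proteins with no bacterial counterpart (SD, n = 2). The large-subunit proteins Mrps18a and Mrps30 had 72.3 ± 1.8 and 60.1 ± 8.4 CPM, and Mrps36 had 33.6 ± 9.1. Mrps28 was the least read of all 78 genes, with 5 reads in replicate 1 and 14 in replicate 2.

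**Figure D2:**
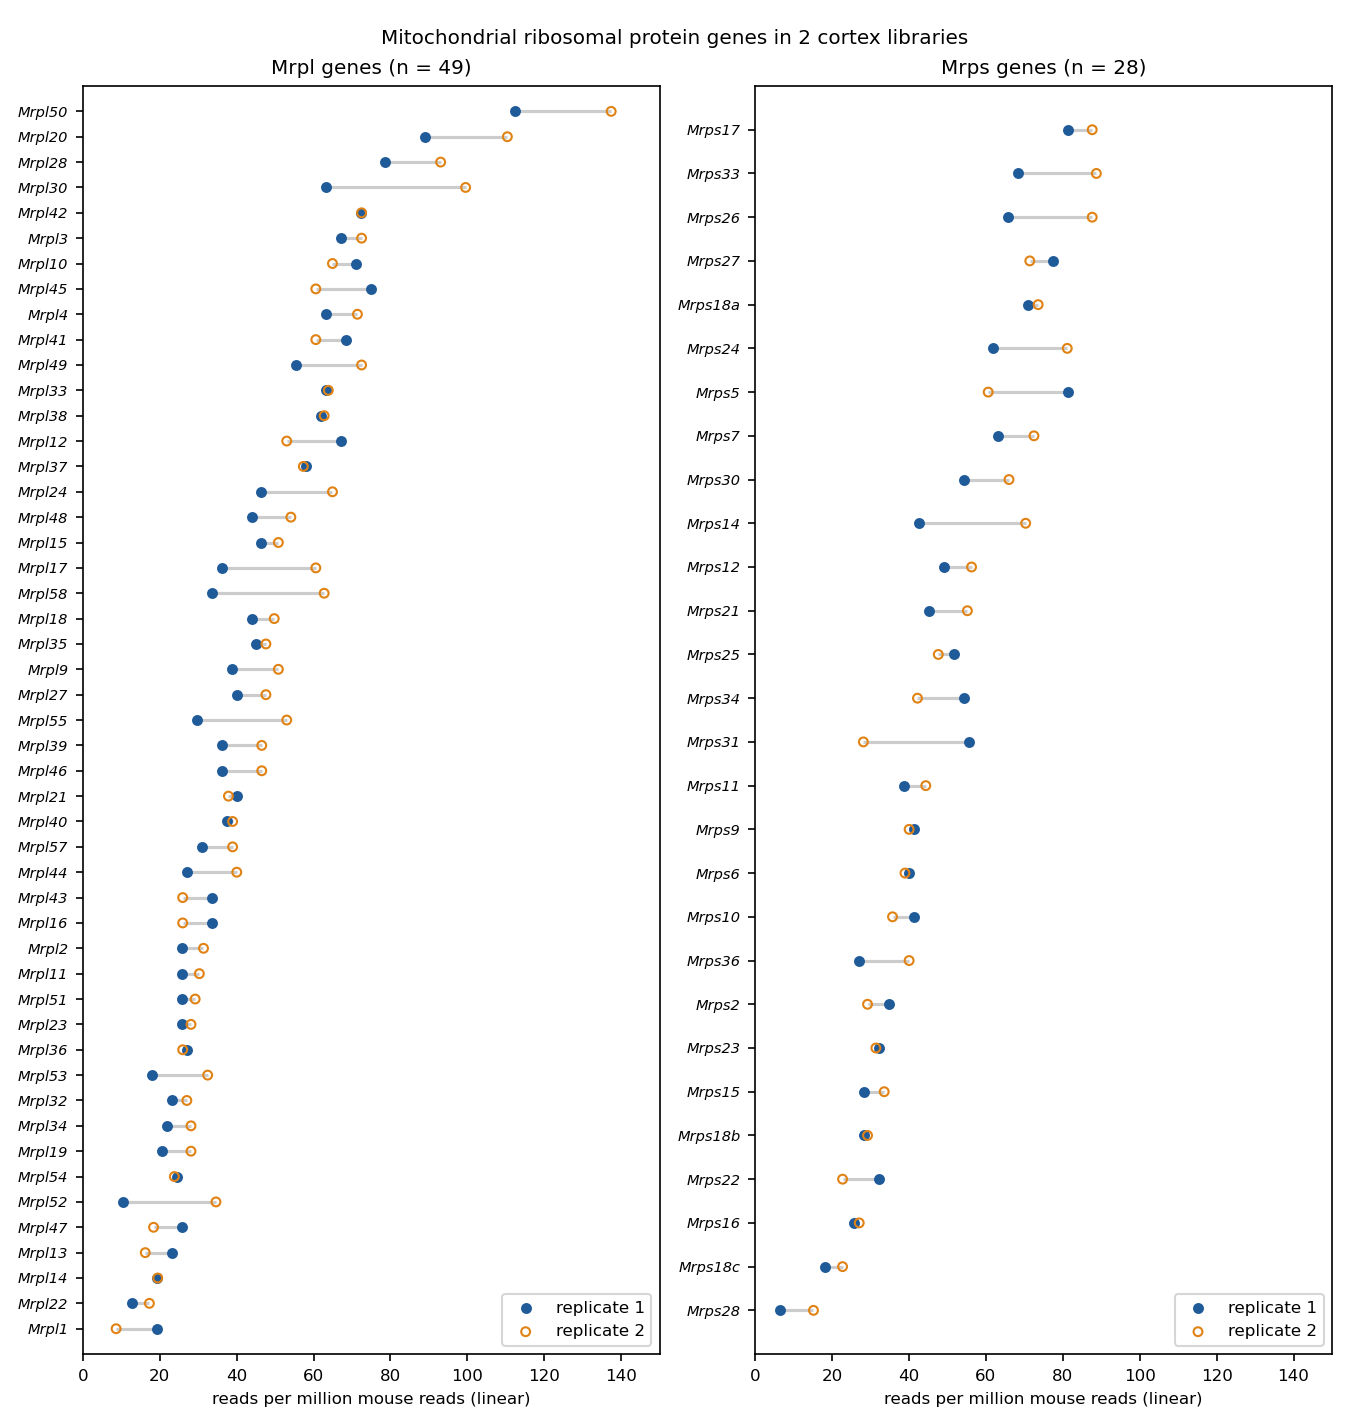
CPM of 77 of the 78 genes (linear axis), Mrpl genes in the left panel and Mrps genes in the right, ordered by mean; filled points are replicate 1, open points replicate 2, and a grey line joins them. Mrpl50 stands highest at 112 and 137 CPM, and 68 of the 78 genes have a mean between 20 and 80.

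No member was called different between the 2 libraries, which does not show that the members were equal. By Fisher's exact test per gene, with Benjamini-Hochberg adjustment over 11203 genes with at least 10 reads, 0 of the 78 members were called at an adjusted p under 0.05, against 2.11% of all genes tested. At an unadjusted p under 0.05, 7 members passed (8.97%), against 11.2% of all genes. An exact binomial test scaled with edgeR's TMM sizes and one with DESeq2 size factors also called 0. Replicate 1 over replicate 2 was below 1 for 53 of the 78 members, with a median log2 ratio of -0.17, where all genes tested had a median of 0.01 and 48.5% below 1. The interval of the ratio, which covers counting error only, included 0 for 71 of the 78 members. For the summed reads of the members the log2 ratio was -0.145. Its interval had a half-width of 0.072 and so did not include 0.

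Mrpl52, a large-subunit protein, had the lowest adjusted p: 8 reads in replicate 1 and 32 in replicate 2, which is a log2 ratio of -1.68 with a 95% interval from -2.77 to -0.59 and, in the exact test, an adjusted p of 0.0551. It passed the threshold with genes under 20 reads left out (adjusted p = 0.0472), and its adjusted p ranged from 0.0472 to 0.174 over the 5 alternatives that test against counting error. Higher in replicate 2 at an unadjusted p under 0.05 were also Mrpl30 (49 and 92 reads in replicates 1 and 2), Mrps14 (33 and 65), Mrpl17 (28 and 56), Mrpl58 (26 and 58) and Mrpl55 (23 and 49). Mrps31, a small-subunit protein, was the only one of the 7 higher in replicate 1, with 43 reads there and 26 in replicate 2 (log2 ratio 0.97, 0.27 to 1.67; exact test, adjusted p = 0.168). The 5 largest ratios in size also included Mrps28 (-1.14, -2.56 to 0.27) and Mrpl1 (1.12, -0.09 to 2.33), whose intervals cover 0. None of these single genes passed the adjustment in the analysis over all genes.

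The ratio moved with transcript length in the whole library. Members whose leading transcript was under 1000 bases had a median log2 ratio of -0.24 (26 genes), against -0.27 for 645 other genes of that length. From 1000 to under 2000 bases the medians were -0.04 (27 members) and -0.003 (2099 others), and from 2000 bases -0.19 (24 members) and 0.05 (6568 others). Mrpl33, whose leading chain of 467 bases is not annotated, was not in these length groups. The part of length in the members' ratios was not tested.

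**Figure D3:**
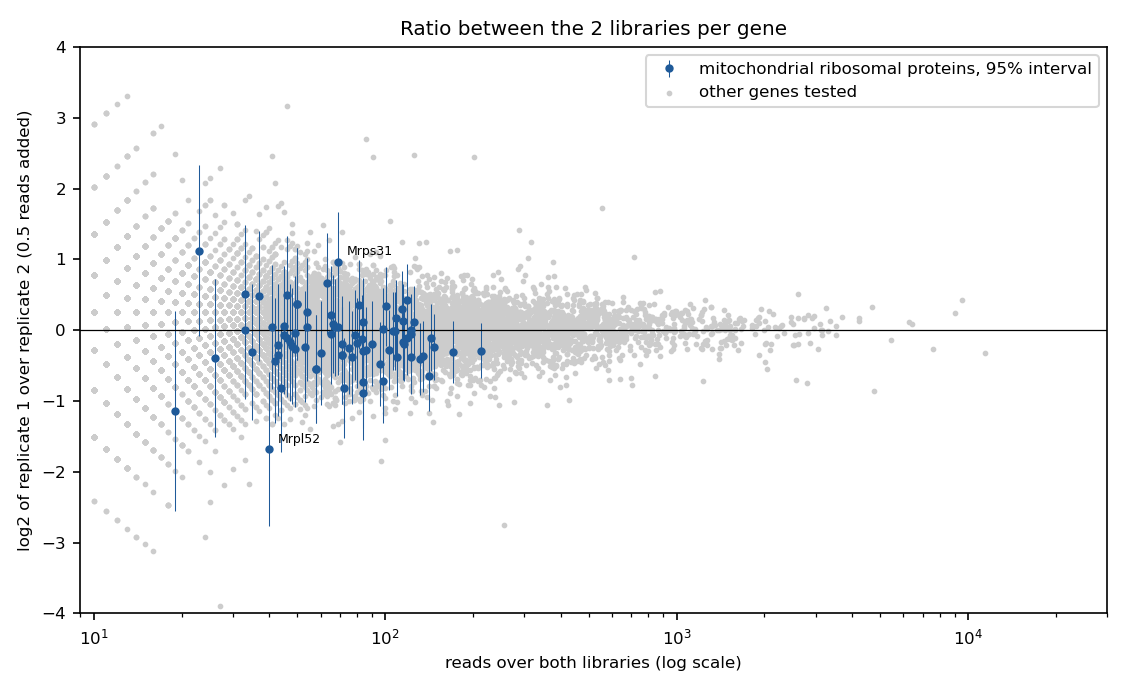
Log2 of replicate 1 over replicate 2 (0.5 reads added) against the reads of both libraries (log axis) for the 11203 genes tested. Genes beyond the ends of the vertical axis, such as AC139750.2 (-4.27), are not shown. Members are blue with 95% intervals, other genes grey. Mrpl52 (-1.68) and Mrps31 (0.97) are named, and most members lie just under 0 with a median of -0.17.

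No gene of 4 further lists of mitochondrial translation was called between the libraries, while the direction of the median ratio differed among these lists. The 5 mitoribosomal proteins with other names, Dap3, Gadd45gip1, Aurkaip1, Ptcd3 and Chchd1, had a median mean CPM of 66.5, and 0 of 5 were called. Dap3, a GTP-binding small-subunit protein, had 50 reads in replicate 1 and 91 in replicate 2. Of the mitochondrial translation factors 0 of 10 tested were called, as were 0 of 16 mitochondrial aminoacyl-tRNA synthetases and 0 of 23 assembly factors. At an unadjusted p under 0.05 the counts were 1 of the 5 proteins with other names, 0 factors, 4 synthetases and 2 assembly factors. Median log2 ratios were -0.30, 0.06, 0.19 and 0.25 in these 4 lists, with 4 of 5, 4 of 10, 6 of 16 and 9 of 23 genes below 0. In the same test, which called 2.11% of all genes, 7 of 35 complex I genes, 11 of 81 cytoplasmic ribosomal protein genes and 1 of 32 proteasome genes were called, all lower in replicate 1 than in replicate 2. The medians of these 3 lists were -0.50, -0.38 and -0.02. No test of the difference between lists was made.

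Most member reads matched an annotated transcript. Each read had been sorted by its splice junctions into Known (a full annotated chain of junctions), ISM (part of an annotated chain), NIC (a new combination of annotated splice sites), NNC (at least 1 unannotated splice site) or Genomic (a model the authors' pipeline sets apart as overlapping introns or lying within exons). Known transcripts held 82.2% of member reads in replicate 1 (80.7 to 83.6, 95% Wilson interval) and 82.7% in replicate 2 (81.4 to 83.9), against 72.8% and 71.6% in other protein-coding genes. ISM reads made up 4.78% and 3.93% in replicates 1 and 2, against 10.6% and 11.1% in other genes, and 59.4% and 61.2% of the members' ISM reads lacked the 5′ part of the chain. NIC reads were 4.25% and 4.08%, against 7.08% and 6.88%. NNC reads were 5.08% and 4.59%, against 4.43% and 4.50%, and Mrpl33 alone held 44 of the 136 NNC reads of the members in replicate 1 and 56 of 162 in replicate 2. Members and other genes differed in transcript length, and the part of length in these shares was not tested.

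Mrpl33, a small protein of the large subunit, was the only member whose leading isoform is not in the annotation. Its leading chain was an NNC model of 3 exons with 44 of 49 reads in replicate 1 (89.8%) and 53 of 59 in replicate 2 (89.8%), while the annotated coding transcript Mrpl33-201 had no read in either library. The chain uses a splice donor 8 bases past the annotated end of exon 1 and leaves out the annotated 19-base exon 2; from there it joins annotated exons 3 and 4. The 3 sequences below, from GENCODE M21 transcripts on mm10, plus strand, show the changed junction. The first spans chr5:31614013-31614046 with the 8 added bases in capitals, the second chr5:31614593-31614631 with exon 2 in capitals, and the third chr5:31616361-31616400 with the last 2 bases of the intron in capitals.
Mrpl33 end of exon 1: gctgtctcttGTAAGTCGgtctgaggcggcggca
Mrpl33 exon 2: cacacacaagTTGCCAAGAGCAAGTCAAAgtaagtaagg
Mrpl33 start of exon 3: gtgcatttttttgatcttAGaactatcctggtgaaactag
The unannotated intron starts with gt after the capitals and ends with AG. The 8 added bases and the 19-base exon share a run of 5 bases, AAGTC, and the part of alignment in this junction was not tested. Against Mrpl33-201 the chain is 11 bases shorter, which is not a multiple of 3: from the annotated start codon, the annotated transcript runs 65 codons to a stop and the chain runs 42.

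Most members had a single dominant isoform. Of the 78 genes, 57 had at least 20 Known, NIC or NNC reads in each library, and in these the leading isoform held a median of 88.4%, against 84.3% in 5089 other protein-coding genes. In 13 of the 57 (22.8%), 2 or more isoforms reached 10% in both libraries, against 30.2% of the others. In these 13 the leading isoform held a median of 61.0%, and in 6 of them (Mrpl48, Mrpl55, Mrps10, Mrps12, Mrps17 and Mrps23) it held under 50% in at least 1 library. Unannotated chains reached 10% in both libraries in 4 members (7.02%), among them Mrpl33, Mrpl48 and Mrps10, against 13.9% of the others. The leading isoform was the same in both libraries in 54 of 57 members, all but Mrps12, Mrps10 and Mrps23. A chi-square test of isoform usage between the libraries, over 4921 genes, called 0 of 55 members tested, against 1.14% of all; 4 members had an unadjusted p under 0.05 (Mrpl17, Mrps33, Mrps12 and Mrpl42), against 6.67% of all.

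**Figure D4:**
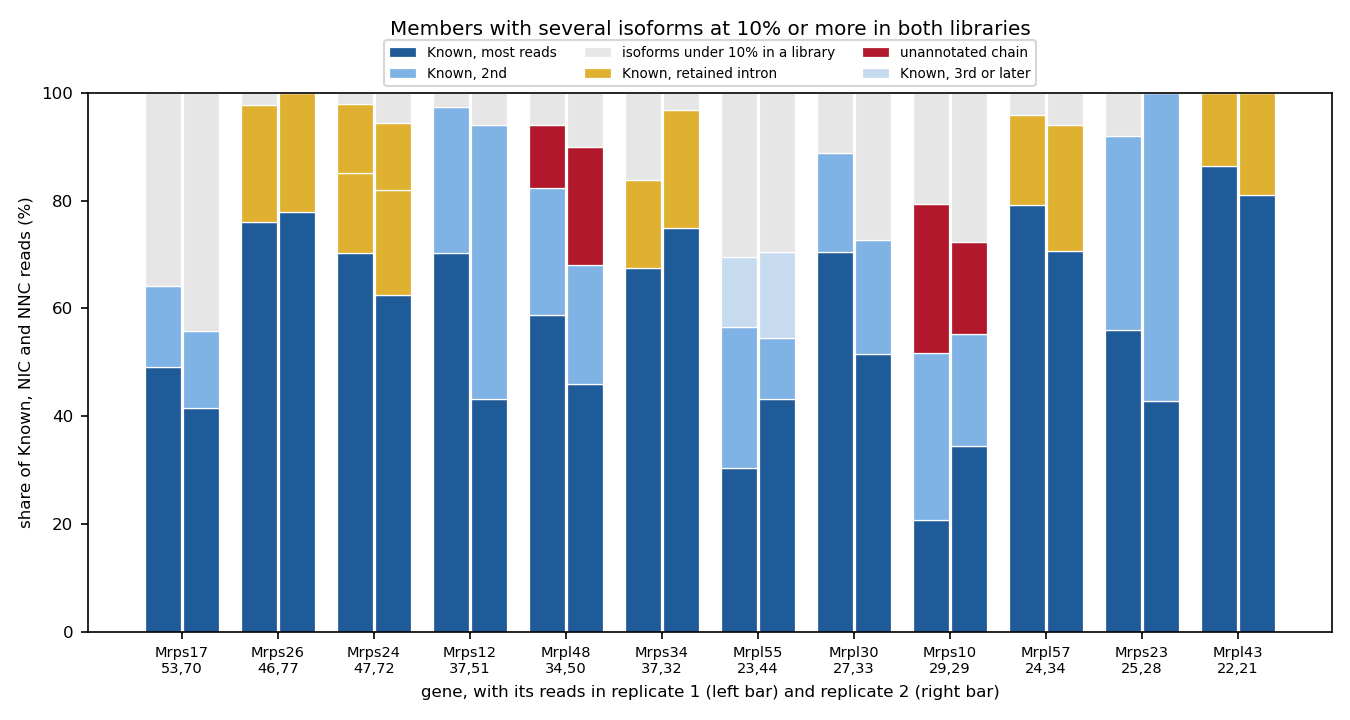
Share of Known, NIC and NNC reads (%) of each isoform at 10% or more in both libraries, for 12 of the 13 members with several such isoforms; the left bar of each pair is replicate 1 and the right bar replicate 2. Retained-intron transcripts (yellow) stand beside the leading isoform in Mrps26, Mrps24, Mrps34, Mrpl57 and Mrpl43, and unannotated chains (red) in Mrpl48 and Mrps10.

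Several of these isoform pairs have coding sequences of the same length in the annotation. Their protein sequences were not compared. Mrps17-201 had 26 of 53 reads in replicate 1 and 29 of 70 in replicate 2, beside Mrps17-206 with 8 and 10; both hold a coding sequence of 360 bases. A NIC chain that skips the 80-base exon 2 of Mrps17 had 5 and 8 reads, and the exon was included in 83.9% and 78.4% of the reads that decide it. Mrps12, the counterpart of a decoding-centre protein, was split between Mrps12-204, with 26 reads in replicate 1 and 22 in replicate 2, and Mrps12-201, with 10 and 26, which both code for 417 bases. The leading share of Mrps12 differed most among members, 70.3% in replicate 1 (54.2 to 82.5) and 43.1% in replicate 2 (30.5 to 56.7), with an adjusted p of 0.720 in the chi-square test over all genes. Mrpl30 joined its 5′ exon with or without an 81-base exon, included in 79.2% of 24 reads in replicate 1 and 72.0% of 25 in replicate 2, and both forms code for 480 bases.

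Others change the coding sequence. Mrps23-201 had 14 reads in replicate 1 and 12 in replicate 2 and codes for 531 bases. Mrps23-203, which uses a donor 95 bases further on, had 9 and 16 and codes for 474 bases in the annotation. Mrpl48 was led by Mrpl48-208 (20 and 23 reads, 633 coding bases), with Mrpl48-207 (8 and 11, 339 coding bases) and a NIC chain (4 and 11). The read counts leave wide intervals: for Mrps23-201, 56.0% in replicate 1 (37.1 to 73.3) and 42.9% in replicate 2 (26.5 to 60.9).

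Small shifts of a splice acceptor occurred in Mrps10, Mrpl55 and Mrpl40. The sequences below, from GENCODE M21 transcripts on mm10, show them with the optional bases, those between both acceptors, in capitals. Mrps10 (chr17:47372552-47372593, plus strand) and the first Mrpl55 site (chr11:59204172-59204183, plus strand) differ by 3 bases, the second Mrpl55 site (chr11:59204535-59204564, plus strand) by 21 and Mrpl40 (chr16:18873682-18873695, minus strand) by 5. Only for Mrps10 does the sequence include the intron before the exon.
Mrps10: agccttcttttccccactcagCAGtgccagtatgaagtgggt
Mrpl55 first site: CAGggcctacgt
Mrpl55 second site: TGCCTGCACGTCTGTCCGTAGcctgctgag
Mrpl40: AGCAGaacctctgc
In Mrps10 the 6 letters cagCAG hold both acceptors. Junctions to the downstream acceptor had 10 reads in replicate 1 and 11 in replicate 2, and those to the upstream one 11 and 9, so the upstream site took 52.4% and 45.0%. The coding sequence of Mrps10-203 is 603 bases and that of Mrps10-204 is 600. A NIC chain that skips the exon had 8 reads in replicate 1 and 5 in replicate 2. In Mrpl55, the acceptor that leaves out CAG took 50% of 20 reads in replicate 1 and 28.9% of 38 in replicate 2, upstream of the annotated start codon. The 21-base form took 26.3% and 28.9% and lengthens the coding sequence to 402 bases, against 381. The acceptor of Mrpl40 that leaves out 5 bases had 3 of 29 reads in replicate 1 and 2 of 36 in replicate 2.

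Most internal exons tested were included almost always or almost never. Some exons had too few reads to be tested, such as the Mrps10 exon above. Of the reads at the 2 main junctions into the next Mrps10 exon, 9 of 27 in replicate 1 and 7 of 25 in replicate 2 skipped it. Of 30 member exons in 22 genes with at least 20 deciding reads in each library, 0 were called between the libraries by Fisher's exact test, against 0.0133% of 7512 exons (1 exon), and 0 had an unadjusted p under 0.05, against 1.36% of all. Many of the member exons had only 1 or 2 reads of the rarer form over both libraries. Mrpl49, for example, had 0 skipping reads in replicate 1 and 1 in replicate 2. At such counts the test could not reach 0.05, so the lack of calls says little on these exons. Apart from the exons of Mrps17 and Mrpl30, the 170-base exon of Mrpl10 was included in 89.6% of 48 reads in replicate 1 and 89.1% of 46 in replicate 2. A 31-base exon of Mrps33 was included in 8.33% of 48 reads in replicate 1 and 1.27% of 79 in replicate 2.

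Short introns were kept in reads of several members. Among Known reads, 2.36% in replicate 1 (52 reads) and 2.74% in replicate 2 (80 reads) belonged to annotated retained-intron transcripts. In other protein-coding genes it was 1.18% and 1.35%. The higher share lay mostly in Mrps genes, with 3.91% in replicate 1 and 4.51% in replicate 2. Mrpl genes had 1.35% in replicate 1 (Wilson interval 0.86 to 2.12) and 1.62% in replicate 2 (1.13 to 2.32). These intervals include the values of other genes. Counted over all models at the introns of the leading Known transcripts, 12 of 240 member introns (5.0%) in 8 genes were kept in at least 10% of reads in both libraries, against 1.61% of 45647 introns in other protein-coding genes. Of introns under 200 bases, 8 of 33 in members (24.2%) and 4.37% of 7605 in others passed this level. Of those from 200 to under 1000 bases it was 4.48% of 67 and 2.41% of 13684, and from 1000 bases 0.714% of 140 and 0.296% of 24358. By gene, the 8 kept member introns under 200 bases lay in 5 of 21 members, against 247 of 2590 other genes. Introns of 1 gene can be kept in the same read, so they are not independent. With Genomic models left out, the share of introns under 200 bases was 15.2% in members and 3.91% in others.

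Mrps34 kept its 173-base intron 1 in 25% of 40 reads in replicate 1 and 32.4% of 37 in replicate 2. Mrps26 kept the 80-base intron 2 in 24.5% of 49 reads and 22.5% of 80. Mrps24 kept the 68-base intron 1 in 14.9% of 47 reads and 26.0% of 73, and the 77-base intron 2 in 12.8% and 17.3%. These introns interrupt the coding sequence. Mrpl43 kept its 122-base intron 2 in 23.1% and 20.8% of 26 and 24 reads, Mrpl41 its 206-base intron in the 5′ untranslated region in 22.6% and 16.4%, and Mrps17 its 963-base intron 2, also there, in 34.1% and 32.7%. All reads that kept the Mrpl41 intron (12 in replicate 1 and 9 in replicate 2) belonged to Genomic models, and without these models none of its reads kept the intron. Leaving Genomic models out gave 16.7% and 21.9% for Mrps34 intron 1 and 13.0% and 17.4% for Mrpl43 intron 2. It gave 14.9% and 22.9% for Mrps24 intron 1, 12.8% and 13.9% for its intron 2, and the values above for Mrps26 and Mrps17. Mrps34 intron 2 then had 0% in both libraries. Mrpl43 intron 1 had 4.35% and 8.7%, and Mrpl38 intron 1 had 8.51% and 10.9%. The 3 short introns of Mrps26 and Mrps24 are shown from GENCODE M21 transcripts on mm10, with the intron in capitals and 10 bases of exon on each side: chr2:130564218-130564317 (plus strand), chr11:5707546-5707633 and chr11:5707400-5707496 (both minus strand).
Mrps26 intron 2: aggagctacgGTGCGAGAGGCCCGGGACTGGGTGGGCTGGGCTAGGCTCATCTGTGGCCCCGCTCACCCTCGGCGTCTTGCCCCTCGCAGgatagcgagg
Mrps24 intron 1: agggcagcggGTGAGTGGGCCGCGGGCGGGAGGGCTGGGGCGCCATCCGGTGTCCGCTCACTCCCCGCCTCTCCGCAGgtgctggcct
Mrps24 intron 2: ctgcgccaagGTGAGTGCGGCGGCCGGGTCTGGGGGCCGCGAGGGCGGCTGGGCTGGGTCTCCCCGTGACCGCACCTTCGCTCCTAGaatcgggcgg
Each begins with GTG and ends with AG.

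**Figure D5:**
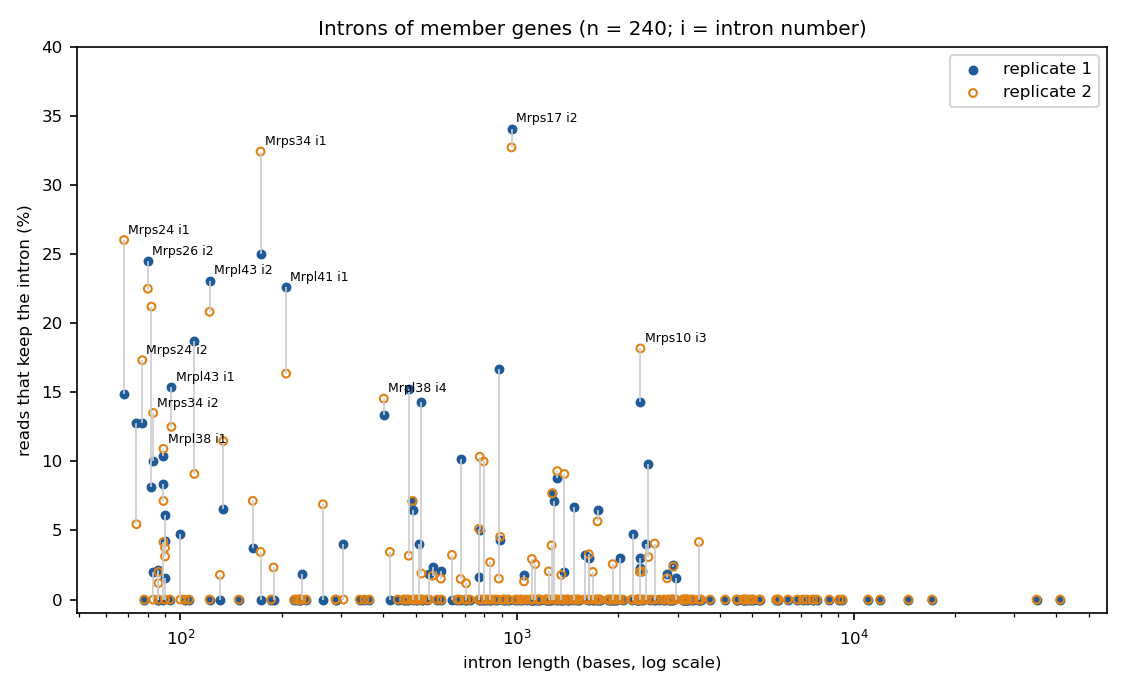
Share of reads that keep an intron (%) against intron length (bases, log axis) for 240 introns of member genes; filled points are replicate 1, open points replicate 2, joined by a grey line. Introns at 10% or more in both libraries carry the gene and intron number: 8 of these 12 are shorter than 200 bases, and Mrps17 intron 2 stands highest at 34.1% and 32.7%.

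The members with the lowest share of Known reads owed this to different models. After Mrpl33 (6.12% in replicate 1 and 5.08% in replicate 2) came Mrpl30, with 53.1% and 30.4%, where a single-exon Genomic model of 174 bases in the last exon held 22 reads in replicate 1 and 59 in replicate 2. Without this model Mrpl30 had 27 and 33 reads, so most of the difference between its libraries lay in these reads. Mrpl24 had 47.2% and 46.7% Known reads, and a Genomic model given as 1 base long held 17 and 29 reads. Mrps10 had 46.9% and 48.5%, with the NIC chain above. Mrps22 had 56.0% and 61.9%, with an ISM chain of its last 5 exons at 10 and 7 reads.

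Members often start close to another gene on the other strand. Of the 78 genes, 33 (42.3%) had a protein-coding gene on the opposite strand whose annotated start lay within 1000 bases, against 15.2% of the other 12983 protein-coding genes with reads in both libraries. Mrps11 and Mrpl46 are such a pair, with starts 412 bases apart and 30 and 41 reads for Mrps11 in replicates 1 and 2, and 28 and 43 for Mrpl46. Chosen after the list was seen for their own mitochondrial roles, Sars2, a mitochondrial aminoacyl-tRNA synthetase, starts 172 bases from Mrps12, the complex I gene Ndufs6 29 bases from Mrpl36, and Twnk, the mitochondrial DNA helicase, 779 bases from Mrpl43. The partners' reads ranged widely: Rab6a had 346 and 395 reads next to Mrpl48 with 34 and 50, and Lrrc46 had 0 and 0 next to Mrpl10 with 55 and 60.

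The promoters were searched for motifs known from nuclear genes of mitochondrial proteins and ribosomal proteins. RefSeq windows from 250 bases before to 50 bases after the gene start (GRCm38.p6) were held for 69 of the 78 members, 75 windows in all, and for 21188 windows of other protein-coding genes. These other genes were taken with or without reads in the libraries, unlike those in the comparison of neighbours above. On either strand, the ETS family motif CCGGAAG lay in 34.7% of member windows and 11.5% of the others, the NRF1 motif CGCNTGCGC in 21.3% and 8.53%, and the YY1 motif AANATGGCG in 14.7% and 3.08%. The GC box GGGCGG lay in 52% and 46.2%, and the TATA box TATAAA in 6.67% and 12.6%. A match is a description of letters and not of binding. The windows of Mrps26 (chr2:130563507-130563806, plus strand) and Mrps27 (chr13:99344536-99344835, plus strand) are shown because they hold 2 of the first 3 motifs and belong to the members with the most reads among those that do. Capitals mark matches to these 3 motifs on either strand.
Mrps26: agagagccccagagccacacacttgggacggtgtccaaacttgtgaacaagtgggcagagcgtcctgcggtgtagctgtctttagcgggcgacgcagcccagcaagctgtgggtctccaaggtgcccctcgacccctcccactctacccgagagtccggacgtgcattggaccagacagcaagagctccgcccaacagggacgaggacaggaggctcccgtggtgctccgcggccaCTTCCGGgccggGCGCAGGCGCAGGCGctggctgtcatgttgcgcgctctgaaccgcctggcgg
Mrps27: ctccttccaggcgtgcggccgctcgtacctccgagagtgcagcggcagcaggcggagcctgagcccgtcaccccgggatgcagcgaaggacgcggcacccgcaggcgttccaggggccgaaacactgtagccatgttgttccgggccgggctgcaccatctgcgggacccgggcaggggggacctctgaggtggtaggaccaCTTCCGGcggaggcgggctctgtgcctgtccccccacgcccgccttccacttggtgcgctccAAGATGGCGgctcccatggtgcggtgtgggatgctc
In Mrps26, CTTCCGG is the ETS motif read on the other strand, and the longer run holds 2 overlapping NRF1 matches on that strand. Mrps27 holds CTTCCGG and the YY1 match AAGATGGCG. No match of one motif overlaps one of another in these windows.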

How the data were processed

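Long-read RNA-seq of 2 left cerebral cortex libraries was used. The values are raw read counts per transcript model, deposited by the authors with a novelty class for each model, and 1 TALON annotation of models per library on mm10 with GENCODE M21 identifiers, per the file headers; exon number and length, and the start and end positions in the deposited annotation, are other values. No source used here names the aligner or its filters. Models without reads are not listed. Spike-in reads (7473 in replicate 1 and 10830 in replicate 2) were left out. The members and gene lists were chosen with earlier results of these data known. The 3 comparison complexes were taken by symbol, and after their values were seen 13 ribosomal symbols (S6 kinases, Rps19bp1 and pseudogene symbols), Ndufa4 and Ndufa4l2, and 4 proteasome symbols (Psmc3ip, and the assembly chaperones Psmd5, Psmd9 and Psmd10) were left out as no subunits of the complex.

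Counts were summed per gene and divided by mouse reads (775048 and 924222). Python 3.11.15 with scipy 1.17.1 ran two-sided Fisher's exact tests per gene (at least 10 reads over both libraries; 0.5 reads added for log2 ratios), chi-square tests of isoforms (at least 20 reads in each library, isoforms under 10 reads merged) and Fisher's exact tests of exon inclusion (at least 20 reads), each adjusted by Benjamini-Hochberg over all features at 0.05. Scaling alternatives used edgeR 4.0.16 and DESeq2 1.42.0. An intron counted as kept where 1 exon of a model spans it. Steps were tested on simulated data. Named are members passing a test, the 4 with the most reads per role, the 5 most and 5 least read, the 5 largest ratios, those with several isoforms or unannotated chains, the 5 lowest Known shares and the 5 largest isoform differences. Known models carry annotated rather than read ends, so start sites within an exon were not measured. Values of 1 member by name are not reported here.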

Additional observations from a re-analysis of the deposited data

How the results depend on the processing

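With 1 group of 2 libraries there is no replicate check beyond the pair, and with a median of 71.5 reads a member over both libraries the tests see only large differences. Leaving out genes under 20 reads called 1 member, Mrpl52, in place of 0, and the 4 other alternatives on counting error called 0. edgeR's negative binomial exact test also gave 0 (3 members at an unadjusted p under 0.05, and 0.638 as the adjusted p of Mrpl52), but its dispersion comes from the same 2 libraries that it compares, so it says nothing on whether members differ. The summed level was 4108 CPM over protein-coding reads and 4602 CPM over Known reads, and 3458 to 3823 CPM in single libraries. The share on Known transcripts was 93.0% for models of at least 5 reads and 86.1% as the median over single members, and 82.2% to 82.7% in single libraries. Members with several isoforms numbered 20 at a minor share of 5%, 5 at 20%, 1 of 9 at 50 reads, 16 with ISM chains counted, 10 among Known transcripts, and 18 to 19 when judged in 1 library. The median log2 ratio stayed between -0.18 and -0.12 under all 6 alternatives. Isoform usage and exon inclusion gave 0 calls under each of their 3 alternatives, with 1 to 3 members and 0 exons at an unadjusted p under 0.05. The cause of these shifts was not tested, beyond the fewer genes, models or reads that each setting leaves. No paired analysis was possible because both libraries belong to the same group.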

Other observations

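The processed pseudogene Mrpl23-ps1 had 7 reads in replicate 1 and 7 in replicate 2, beside 20 and 26 for Mrpl23. Their sequences were not compared, and whether reads of one were assigned to the other was not tested. On the same strand, 6 members overlapped another annotated gene with reads, among them Mrps24 with Urgcp (71 and 96 reads in replicates 1 and 2) and Mrpl53 with Gm42688 (11 and 18 reads, where Mrpl53 had 14 and 30). On the opposite strand 25 members overlapped a gene with reads. No source used here says whether the counting used strand.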
